A study of Mus musculus with 16 samples.

Results

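Gene expression was compared between microbead-injected and saline-injected optic nerve heads of young mice 4 weeks after the injection. The comparison uses 7 of the 16 libraries of the study, microbead-injected libraries 1 to 4 and saline-injected libraries 1 to 3, chosen by their column names in the deposited count table. Saline library 4, which the authors left out of their comparison tables, is given beside the results and enters a fit only where this is said. The paper reports that an outlier of the saline group in a principal component analysis was excluded. The exclusion thus rests on expression in these same libraries, and the calls and separate groups below depend on it. Both groups were wild type C57BL/6 mice, labelled as 13 weeks old, and received the injection in the anterior chamber on the right side. Each library pooled the unmyelinated part of 4 right optic nerves, from 2 male and 2 female mice, so a library carries no information on single animals. The other libraries came from naïve mice of 13 and 40 weeks. They entered the filter, the scaling, the length trend and the shared estimate of the spread, and the 13-week ones were the reference for the length correlations.

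Microbeads block the outflow of aqueous humor from the anterior chamber, which raises intraocular pressure, while saline serves as the injection control. The optic nerve head is the place where ganglion cell axons leave the eye and are still without myelin. In the mouse this segment, the glial lamina, is built of astrocytes whose processes surround the axon bundles, with microglia, blood vessels and the pia as further cell types. After injury astrocytes can become reactive, extend new processes and take up axonal debris.

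The 7 libraries held between 7321554 and 10726122 counts in genes, with 16446 to 16847 genes detected in each, and saline 4 held 8273467. Astrocyte transcripts were abundant in every library: Gfap, the intermediate filament of astrocytes, lay between 6747 and 9834 CPM (the count scaled by the normalized library size), and the summed level of 25 astrocyte markers was 25602 to 26093 CPM after saline and 22332 to 28377 CPM after microbeads. Myelin markers were also present, at a sum of 6994 to 15609 CPM after saline and 7753 to 12832 CPM after microbeads, although the dissected segment is labelled as unmyelinated in the methods. Retinal and pigment cell transcripts varied from library to library. In RNA from whole tissue, a smaller number of cells of one type and less RNA per cell cannot be told apart.

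Saline 4 stood apart from the other saline libraries and resembled the microbead-injected libraries. Its log2 CPM values correlated at 0.985 to 0.990 with the microbead-injected libraries and at 0.956 to 0.971 with saline 1 to 3, across genes. Pairs within the microbead group reached 0.983 to 0.986 and pairs within saline 1 to 3 reached 0.972 to 0.982. On the first principal component of the 8 injected libraries, which held 39.1% of the variance, saline 1 to 3 lay between -48.1 and -23.6, saline 4 at 25.5 and the microbead-injected libraries between 11.4 and 24.6. Unless a fit with saline 4 is named, the fold changes below rest on the 3 saline libraries that the authors kept, and the level in saline 4 is printed beside the leading genes.

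Of 14541 genes tested with edgeR's quasi-likelihood test, 1810 (12.4%) were called, that is, they changed at least 1.5-fold with p under 0.01 and an adjusted p under 0.05. After microbead injection 1365 genes rose (9.39%) and 445 fell (3.06%). Most changes were moderate, with a median of 1.76-fold among the genes that rose and 0.617-fold among those that fell. A rise of at least 2-fold was found for 387 genes and a fall of that size for 51, while 23 genes rose and 4 fell at least 4-fold. Protein-coding genes made up 1332 of the rises and 427 of the falls, and 20 and 14 were long noncoding RNAs. Groups did not overlap for 1742 of the 1810 called genes, and over all genes tested this was so for 37.5%. When saline 4 was added to its group, edgeR called 0 genes, with 4218 genes at an unadjusted p under 0.05 and a smallest adjusted p of 0.0572, whereas DESeq2 called 517, of which 510 were among the 1810. The direction stayed the same for 1808 of the 1810 genes, and their median change was then 1.48-fold for the rises and 0.682-fold for the falls.

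**Figure D1:**
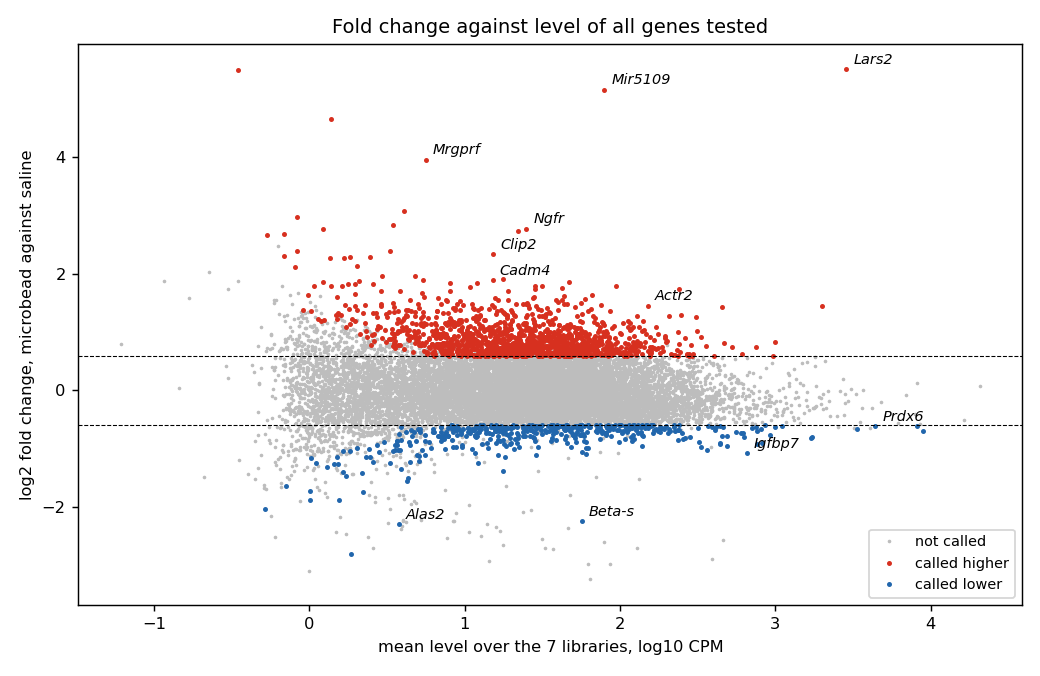
Each point is 1 of the 14541 genes tested, with its mean level over the 7 libraries (log10 CPM) on the horizontal axis and its log2 fold change, microbead against saline, on the vertical axis. Red points are the 1365 genes called higher, blue points the 445 called lower, and dashed lines mark a change of 1.5-fold; Lars2, Mir5109 and Mrgprf stand farthest above the cloud among the genes named.

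Among called genes with separate groups and 50 or more counts on average, Lars2 and Mir5109 had the largest rises. Lars2, the mitochondrial leucyl-tRNA synthetase, was at 131, 90.4 and 109 CPM in saline 1 to 3 and at 6012, 4608, 4949 and 4196 CPM in microbead 1 to 4. Saline 4 had 5558 CPM, and so lay within the range of the microbead-injected libraries. Mir5109, a microRNA gene on chromosome 5 (17776749 to 17776835 of mm10), followed Lars2 closely, with 2.21 to 4.93 CPM in saline 1 to 3, 111 to 162 CPM after microbeads and 146 CPM in saline 4. The log2 fold changes were 5.49 (standard error 0.201) for Lars2 and 5.14 (standard error 0.245) for Mir5109. Rn45s, the precursor of ribosomal RNA, was also higher, at 2195 to 3425 CPM after microbeads against 629 to 1636 CPM in saline 1 to 3 and 2657 CPM in saline 4 (log2 fold change 1.45). Whether reads of ribosomal origin contribute to Lars2 or Mir5109 was not tested. In the naïve libraries Lars2 was at 130 to 213 CPM at 13 weeks and at 8553 to 9294 CPM in the 3 libraries kept at 40 weeks, while the 40-week library that was left out had 678 CPM.

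Mrgprf, Ngfr, Ddit4 and Cxcr4 were also among the largest rises, and their groups are separate by the rule that chose them. Mrgprf, which codes for a Mas-related G protein-coupled receptor (chromosome 7, 145300909 to 145309557 of mm10), was nearly absent from saline 1 to 3, at 0.800, 0.502 and 0.507 CPM, and reached 8.67, 7.62, 9.98 and 11.1 CPM after microbeads. Ngfr, the low-affinity p75 receptor of neurotrophins (chromosome 11, 95568821 to 95587698), had 4.93, 6.83 and 5.33 CPM after saline and 29.3, 39.7, 35.3 and 52.2 CPM after microbeads. Saline 4 lay at 6.51 CPM for Mrgprf and at 47.5 CPM for Ngfr, just below and within the microbead range. Ddit4, an inhibitor of the growth kinase complex mTORC1 that is induced by stress, was at 10.1, 3.11 and 2.92 CPM in saline 1 to 3 and at 31.3, 39.5, 36.4 and 32.0 CPM in microbead 1 to 4. Cxcr4, the receptor of the chemokine Cxcl12, was at 8.40, 5.52 and 6.85 CPM and at 23.2, 24.3, 27.2 and 28.5 CPM. Saline 4, with 27.6 CPM of Ddit4 and 25.1 CPM of Cxcr4, was below every microbead-injected library for Ddit4 and among them for Cxcr4. On the log2 scale the rise was 3.94 for Mrgprf, 2.77 for Ngfr, 2.72 for Ddit4 and 1.91 for Cxcr4, with standard errors of 0.259, 0.242, 0.392 and 0.178.

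Cytoskeletal and signalling genes were also found among the 15 largest rises chosen in this way. Clip2, a linker of microtubules and organelles, rose from 3.68 to 5.42 CPM to 16.9 to 28.4 CPM (log2 fold change 2.33), and Mapk8ip1, a scaffold of the JNK kinase cascade, from 36.7 to 41.7 CPM to 91.4 to 185 CPM (1.79). Vat1, a vesicle amine transport protein, was among the genes with the least spread, with 20.004, 18.8 and 17.4 CPM after saline, 67.2, 62.6, 70.4 and 71.7 CPM after microbeads and 76.7 CPM in saline 4 (log2 fold change 1.86, standard error 0.110). The other members were Lsm14b, Cadm4, the kinase Stk24, Tmem143, Prrc2a and Ppp1r37, with log2 fold changes between 1.79 and 1.89. For Cadm4 saline 4 lay between the groups.

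**Figure D2:**
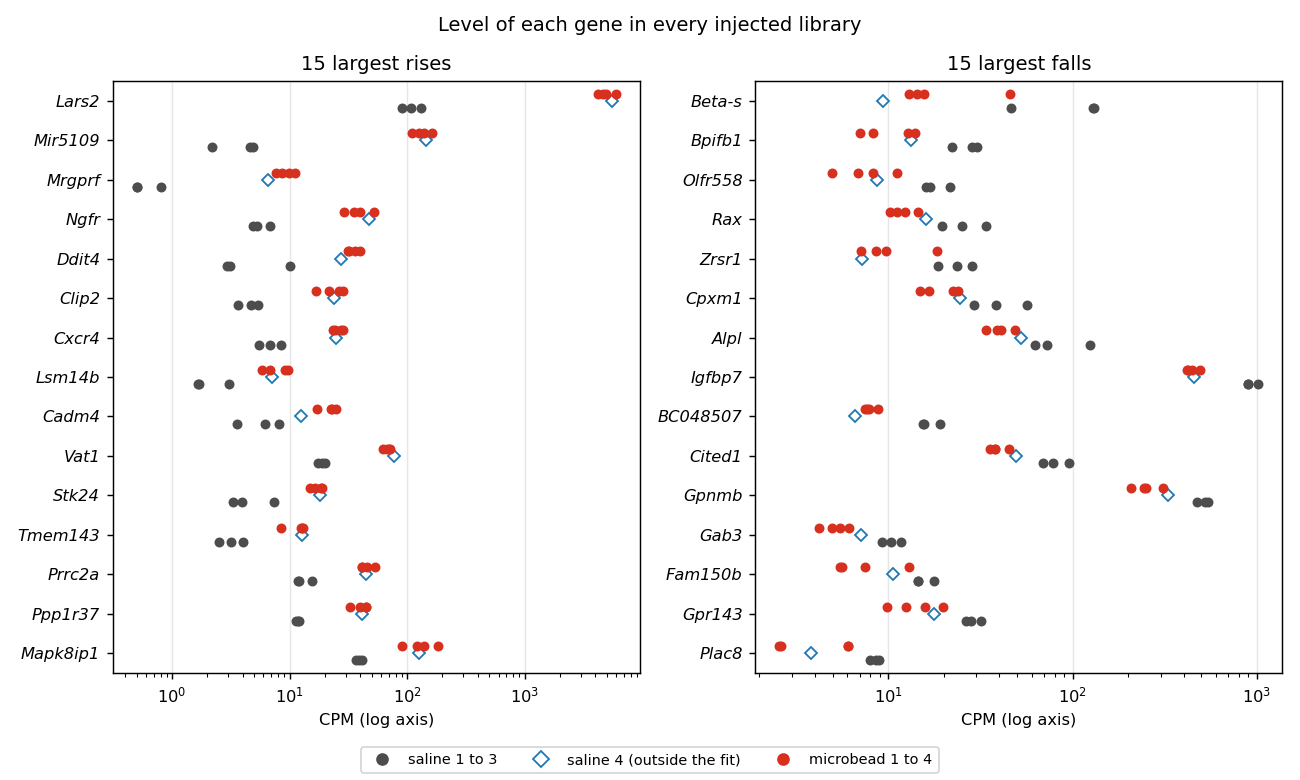
The level of the 15 genes with the largest rises (left) and the 15 with the largest falls (right) is shown in CPM on a log axis, 1 point per library; grey circles are saline 1 to 3, red circles microbead 1 to 4 and open diamonds saline 4, which is outside the fit. The red and grey points do not overlap for any of these genes, by the rule that chose them, and the diamonds lie mostly with the red points.

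The sequence before the start of 4 of these genes is shown as an example. Each window holds the letters GGGCGG (the core of a GC box) or their reverse complement CCGCCC, marked by capitals. Windows hold the 250 bases before the RefSeq start in GRCm38.p6, the assembly behind mm10, read 5′ to 3′ on the gene's own strand, which is the minus strand for all 4. They lie at chr11:95587699-95587948 for Ngfr, chr10:59951771-59952020 for Ddit4, chr1:128592300-128592549 for Cxcr4 and chr11:101466200-101466449 for Vat1.
Ngfr: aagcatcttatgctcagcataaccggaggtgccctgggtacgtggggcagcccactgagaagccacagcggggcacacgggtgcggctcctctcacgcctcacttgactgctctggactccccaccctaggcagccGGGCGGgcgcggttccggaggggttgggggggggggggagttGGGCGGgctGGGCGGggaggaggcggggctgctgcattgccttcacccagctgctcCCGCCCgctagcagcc
Ddit4: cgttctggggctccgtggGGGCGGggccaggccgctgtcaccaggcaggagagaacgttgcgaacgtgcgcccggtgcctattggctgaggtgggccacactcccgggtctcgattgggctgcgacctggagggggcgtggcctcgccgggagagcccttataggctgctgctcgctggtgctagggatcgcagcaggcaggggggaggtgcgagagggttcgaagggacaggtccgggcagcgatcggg
Cxcr4: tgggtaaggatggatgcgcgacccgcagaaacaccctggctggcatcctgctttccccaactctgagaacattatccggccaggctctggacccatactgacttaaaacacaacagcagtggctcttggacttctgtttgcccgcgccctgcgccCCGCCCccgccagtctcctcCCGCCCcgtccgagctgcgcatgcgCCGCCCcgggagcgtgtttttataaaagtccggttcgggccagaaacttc
Vat1: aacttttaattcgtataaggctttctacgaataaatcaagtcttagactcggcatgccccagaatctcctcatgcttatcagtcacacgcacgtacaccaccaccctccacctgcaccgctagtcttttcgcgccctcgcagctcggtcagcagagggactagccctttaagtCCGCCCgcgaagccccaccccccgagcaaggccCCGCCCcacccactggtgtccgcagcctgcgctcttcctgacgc
The letters occur 4 times before Ngfr, 1 time before Ddit4, 3 times before Cxcr4 and 2 times before Vat1. Of the 15 genes with the largest rises, 10 had a window in the RefSeq table, and all 10 held the letters, as did 5 of the 10 genes with a window among the 15 largest falls. The letters are common: they occurred in 32.7% of all 32851 windows of the table and in the windows of 62.6% of the 10305 genes tested that had one, against 74.5% of 1009 genes that rose and 54.4% of 309 genes that fell. Genes with transcripts rich in G and C were also called higher more often, 17.0% in the top 10% against 5.77% in the bottom 10%. The part of GC content in the shares with the letters was not tested. A match describes the letters in the window, not the binding of a factor.

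Axon guidance molecules were the family with the largest share of rises among the lists examined. Semaphorins are repulsive or attractive ligands, and plexins and neuropilins are their receptors. Of 30 members tested, 13 rose and 0 fell (43.3%, against 9.39% of all genes), and the median log2 fold change was 0.56 where that of all genes was -0.01. Plxnd1, a plexin known from blood vessel patterning, was at 11.9, 11.6 and 6.85 CPM after saline and at 24.7, 27.1, 24.7 and 23.4 CPM after microbeads, with 27.2 CPM in saline 4 (log2 fold change 1.30, standard error 0.156). Among the receptors Plxna3 (1.35), Plxnb1 (0.95), Plxna4 (0.73), Plxna2 (0.69), Plxnb2 (0.64) and Nrp2 (0.61) rose as well, so that the gain was found across the A, B and D plexins. Among the ligands, Sema4c (1.07), Sema6b (1.03), Sema7a (0.94), Sema3a (0.80), Sema3d (0.73) and Sema6a (0.61) rose. Sema7a, a semaphorin anchored to the membrane, differed from the others in saline 4, which had 7.10 CPM where saline 1 to 3 had 7.07, 5.62 and 5.07 CPM and microbead 1 to 4 ranged from 9.73 to 12.1 CPM. The median length in this family was 6272 bases. When the dependence on gene length had been fitted and taken out of every library, 5 of the 13 were still called, namely Plxna3, Plxnd1, Sema4c, Sema6b and Sema7a.

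Ephrins and their Eph receptors, which act by contact between cells, gave a similar picture. Of 20 members tested 5 rose and 0 fell (25.0%, against 9.39% and 3.06% of all genes), with a median log2 fold change of 0.39. The ligands Efnb3 (1.07), Efnb2 (0.95) and Efna5 (0.82) and the receptors Ephb2 (0.88) and Ephb3 (0.77) were the members called. Efnb2, which marks arterial endothelium and also occurs on astrocytes, went from 39.1, 26.0 and 38.0 CPM to 55.0, 76.3, 56.6 and 77.1 CPM, with 77.2 CPM in saline 4. The groups did not overlap. Efnb2 and Efnb3 were also called with the length trend removed.

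Of 44 genes of cell protrusion and the actin cytoskeleton 7 rose and 0 fell (15.9%, against 9.39% and 3.06% of all genes). The median log2 fold change was 0.15. After the length trend was removed 6 of the 7 were called again, where 44.3% of all rises were. Actr2, the Arp2 subunit of the complex that nucleates branched actin (chromosome 11, 20062304 to 20112951), was at 97.4, 59.2 and 72.2 CPM after saline and at 207, 223, 220 and 181 CPM after microbeads. Every microbead-injected library held more Actr2 than any of the 3 saline libraries, and saline 4, with 186 CPM, lay inside the microbead range (log2 fold change 1.45 ± 0.136, standard error). Fscn1, fascin, which bundles actin in filopodia, rose from 36.9, 48.6 and 41.0 CPM to 88.9, 89.7, 89.9 and 104 CPM. Vasp, which promotes growth of actin filaments, and Limk1, the kinase that inactivates cofilin, rose by log2 fold changes of 1.00 each, and the Wave proteins Wasf2 and Wasf3, activators of the Arp2/3 complex, by log2 fold changes of 0.89 and 0.79. The other member that rose was Abi2, a partner of the Wave proteins (0.77), which was not called with the length trend removed. No other subunit of the same Arp2/3 complex was called: the groups overlapped for Actr3, Arpc2 and Arpc3, and Arpc1a (log2 fold change -0.28), Arpc1b (-0.47), Arpc4 (-0.22) and Arpc5 (-0.31) were lower in every microbead-injected library than in saline 1 to 3.

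The mTOR and Notch pathways each had 7 members that rose and 0 that fell, of 31 (22.6%) and 28 (25.0%) tested. Of all genes 9.39% rose and 3.06% fell. In the mTOR list, Rptor, the raptor subunit of mTORC1, was at 13.9, 15.5 and 13.8 CPM after saline and at 28.6, 33.3, 28.1 and 28.3 CPM after microbeads. The groups were far apart, and saline 4 lay at 28.4 CPM, among the microbead-injected libraries. Activators and inhibitors rose alike: Mtor (log2 fold change 0.74) and the insulin receptor substrate Irs1 (0.94) on one side, and Ddit4 and Sesn3 (1.15), a sestrin that restrains mTORC1, on the other. In the Notch list, Lfng, the glycosyltransferase lunatic fringe that modifies Notch receptors, showed the largest rise, from 36.8, 22.3 and 23.5 CPM to 81.2, 68.2, 93.3 and 66.3 CPM (log2 fold change 1.49, standard error 0.178). The receptors Notch1 (0.91), Notch2 (0.93) and Notch3 (0.72), the ligand Jag1 (0.62) and the nuclear partners Rbpj (0.68) and Maml1 (0.88) rose by less. With the length trend removed, Lfng alone was called of the Notch list. Of the mTOR list Ddit4, Sesn3 and Rptor were then among those called higher, while Deptor, an inhibitor within the mTOR complexes, was called lower. In that fit 4.61% of all genes were called higher and 1.97% lower.

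Genes of phagocytosis were examined because astrocytes of the optic nerve head take up material from axons. Of 33 members 5 rose and 0 fell (15.2%, against 9.39% and 3.06% of all genes), with a median log2 fold change of 0.23. Bai1 (Adgrb1), a receptor for phosphatidylserine on dying cells, went from 3.07, 4.62 and 3.30 CPM to 8.54, 10.4, 10.9 and 13.0 CPM, with 9.71 CPM in saline 4. Lrp1, a large endocytic receptor, was much more abundant, at 311, 318 and 357 CPM after saline and 531, 610, 543 and 623 CPM after microbeads (log2 fold change 0.81). Dock1, which activates the GTPase Rac during engulfment (0.60), the lipid transporter Abca7 (0.78) and 1700021K19Rik (Rubcn, a regulator of phagosome maturation; 0.73) were the other members that rose. Groups did not overlap for any of the 5, as for 1742 of the 1810 called genes. With the length trend removed Bai1 alone of the 33 was called, where 4.61% of all genes were called higher. The receptor Megf10 was higher in every microbead-injected library (67.9 to 80.5 CPM against 51.4 to 57.2 CPM), but at a log2 fold change of 0.48 it was under the fold minimum, and so was the transporter Abca1 (0.55). The adaptor Gulp1 (57.8 to 66.2 CPM against 50.3 to 56.1 CPM) and Lgals3, galectin-3 (352 to 502 CPM against 510 to 587 CPM), did not overlap between the groups but passed neither threshold (adjusted p = 0.113 and 0.104 in edgeR). Mfge8, a bridge between phosphatidylserine and integrins, was at 257 to 290 CPM against 306 to 480 CPM and also under the minimum (log2 fold change -0.50).

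Of 34 genes of mitophagy and autophagy 5 rose and 0 fell (14.7%, against 9.39% and 3.06% of all genes). Ulk1 (log2 fold change 0.78) and Ulk2 (0.66) are the kinases that start autophagosome formation, Ambra1 (0.63) a scaffold of the Beclin complex, and Wipi2 (0.62) and Atg2b (0.80) act at the growing membrane. None of the 5 was called with the length trend removed. Becn1, the Beclin gene, was at 140 to 159 CPM after saline and at 126 to 132 CPM after microbeads and was not called. Pink1, the kinase that marks damaged mitochondria, ranged over 326 to 514 CPM in the saline libraries and 477 to 542 CPM in the microbead-injected ones, and its partner Park2, parkin, over 3.17 to 4.40 CPM and 3.22 to 6.88 CPM. The groups overlapped for both.

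Chromatin regulators and the extracellular matrix were further groups with rises and no falls. Among all genes 9.39% rose and 3.06% fell. Of 51 chromatin regulators 12 rose (23.5%), with a median log2 fold change of 0.36, among them Mll2 (Kmt2d), a methyltransferase of histone H3 (1.00), the deacetylase Hdac4 (0.84), the demethylase Kdm2a (0.87) and Suz12, a subunit of the Polycomb complex (0.87). After removal of the length trend 3 of them, Mll2, Hdac4 and Suz12, were called higher, and Mll5, which had not been called before, was among those called lower. Of 39 collagens and basement membrane genes 6 rose (15.4%), led by Hspg2, perlecan, at 23.5, 25.6 and 27.6 CPM after saline and 56.1, 44.3, 48.7 and 49.95 CPM after microbeads (0.96). Agrn (0.75), Col4a5 (0.73), Col15a1 (0.87), Lama1 (0.68) and Lama5 (0.71) were the others, all of the basement membrane zone, and 0 of the 39 were called with the length trend removed. Among 21 ionotropic mechanosensors, the polycystin gene Pkd1 (0.97) and the anion channel gene Lrrc8a (0.81) rose (9.52%, close to the 9.39% of all genes).

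**Figure D3:**
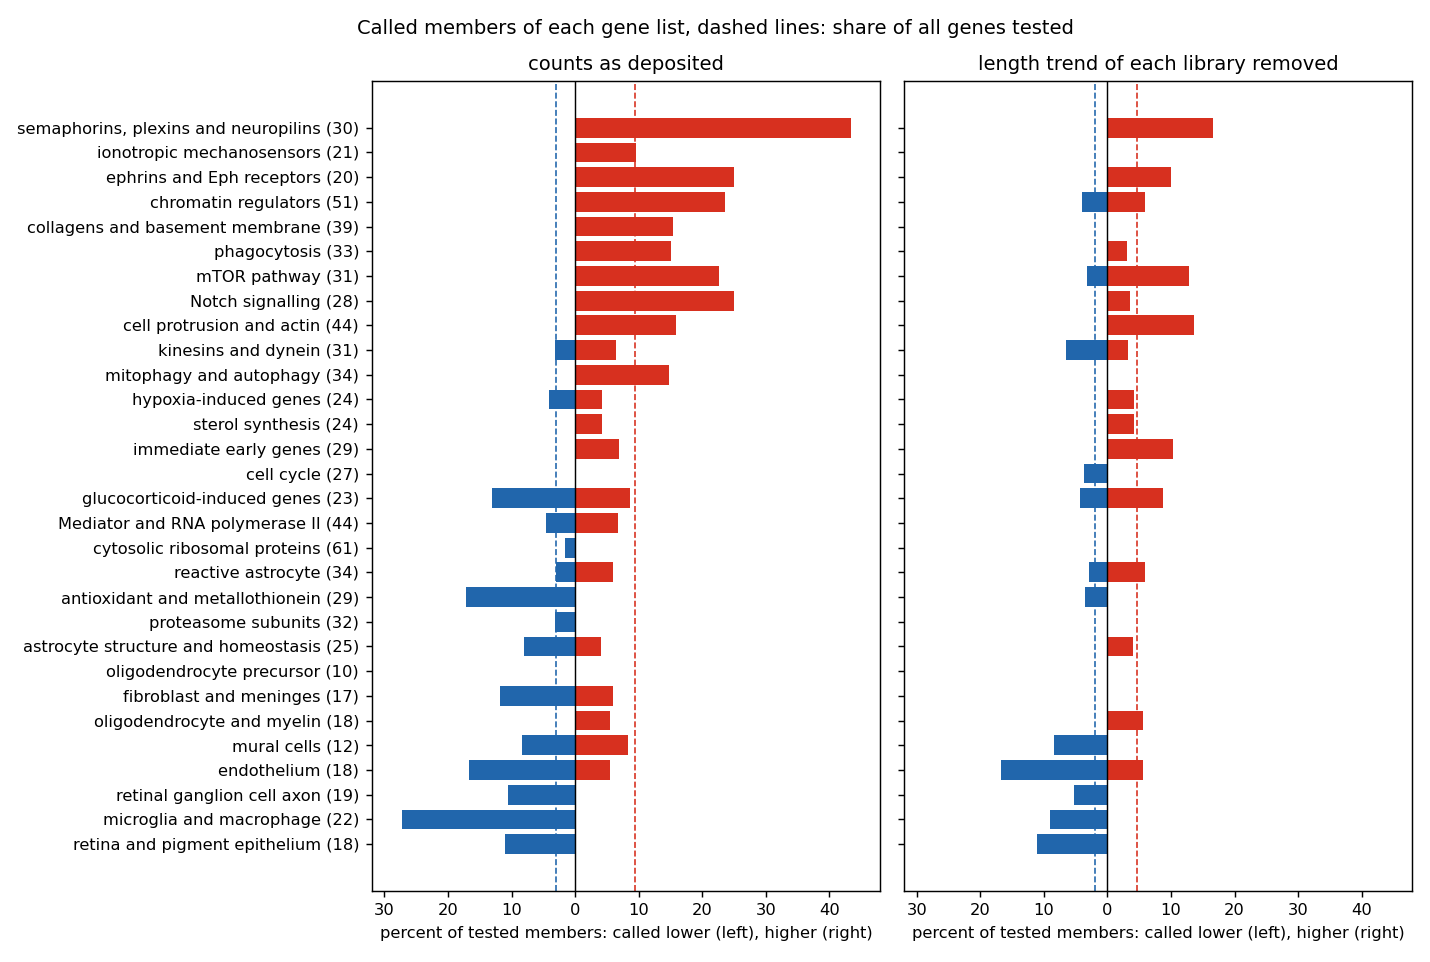
For each gene list with at least 10 members tested (number in brackets), red bars give the percent of members called higher and blue bars the percent called lower, from the counts as deposited (left) and after the length trend of each library was removed (right); dashed lines are the shares of all genes tested (9.39% and 3.06% on the left, 4.61% and 1.97% on the right). Semaphorins, plexins and neuropilins reach 43.3% on the left, and most of the red bars shorten on the right.

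Gfap was at 6974, 8511 and 7782 CPM after saline and 6747, 8352, 9152 and 9834 CPM after microbeads, with overlapping groups (log2 fold change 0.14, standard error 0.118, adjusted p = 0.402 in edgeR). Of 25 markers of astrocyte structure and homeostasis 1 rose (4%, against 9.39% of all genes) and 2 fell (8%, against 3.06%). The member that rose was Pax2, a transcription factor of optic nerve astrocyte precursors, at 8.67, 8.33 and 6.09 CPM after saline and 12.3, 19.996, 16.9 and 21.8 CPM after microbeads (1.21). Id3, an inhibitor of differentiation factors (-0.71), and Aldoc, an aldolase of astrocytes (-0.59), fell, and neither was called with the length trend removed, whereas Pax2 was. Of 34 genes of reactive astrocytes 2 rose, Emp1, a membrane protein (0.80), and Ptgs2, cyclooxygenase 2 (0.74), and 1 fell, the protease inhibitor Timp1 (-0.61), or 5.88% and 2.94%. Of these, Emp1 alone was called with the length trend removed. Emp1 went from 108, 76.5 and 84.1 CPM to 181, 147, 166 and 129 CPM, so that the groups did not overlap, and saline 4 had 134 CPM. Of the other markers of reactivity that the study followed in single astrocytes, H2-T23, Psmb8, Srgn, Clcf1 and Ptx3 had overlapping groups, and Stat3 (log2 fold change 0.30) and the matrix gene Fbln5 (-0.44) were under the fold minimum. With the length trend removed Fbln5 was called lower (-0.81), and 2 members of the list, Emp1 among them, were called higher.

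Markers of microglia and macrophages included 6 falls among 22 tested and 0 rises (27.3% lower, against 3.06% of all genes), with a median log2 fold change of -0.38. Cd68, a lysosomal protein of phagocytes, was at 73.7, 84.9 and 93.1 CPM after saline and 45.6, 43.6, 37.7 and 42.5 CPM after microbeads (-0.99). Aif1, which encodes the microglial protein Iba1, was at 51.9, 48.2 and 45.7 CPM and at 28.4, 28.5, 27.3 and 22.2 CPM (-0.87). For both genes all microbead-injected libraries were below all 3 saline libraries, and saline 4, at 52.7 CPM and 24.0 CPM, lay between the groups for Cd68 and in the microbead range for Aif1. The cathepsin Ctss (-0.73), the complement component C1qb (-0.64), the chemokine Pf4 (-0.85) and Fcrls (-0.81), an Fc receptor-like gene of microglia, fell too. Other defining genes were not called: Cx3cr1, the fractalkine receptor, ranged over 54.4 to 67.0 CPM in the saline libraries and 52.3 to 64.9 CPM in the microbead-injected ones, and Csf1r, the receptor for colony-stimulating factor 1, over 113 to 172 CPM and 142 to 186 CPM. The 6 markers that fell have short transcripts of 588 to 1991 bases, and 2 of them, Cd68 and Fcrls, were called with the length trend removed.

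Of 18 endothelial markers 3 fell (16.7%, against 3.06% of all genes), the tight junction protein Cldn5 (-0.70), Ly6c1 (-0.76) and the sialomucin Emcn (-0.88), while Cdh5, the cadherin of endothelial junctions, rose. Cdh5 was at 18.3, 10.2 and 15.7 CPM after saline, at 37.2, 30.7, 37.8 and 40.1 CPM after microbeads and at 39.4 CPM in saline 4 (1.32). The groups were separate for all 4 genes. With the length trend removed Cdh5 and Emcn were called again and Cldn5 and Ly6c1 were not. Other markers were then called, so that 3 of the 18 were again lower, against 1.97% of all genes. The median log2 fold change of the list was -0.11 before and -0.30 after this removal. Of 12 mural cell markers the receptor Notch3 rose (0.72) and Higd1b fell (-0.92). That is 8.33% in each direction, against 9.39% higher and 3.06% lower among all genes. Of 17 markers of fibroblasts and meninges Foxc1, a transcription factor of meninges, rose (0.72), and the matrix genes Lum (-0.69) and Mgp (-0.63) fell. These are 5.88% and 11.8%, the share of rises being below that of all genes, and 0 of these 3 were called with the length trend removed. Of 18 myelin markers Cldn11, the tight junction protein of myelin, rose from 38.5, 42.7 and 32.2 CPM to 122, 70.7, 122 and 101 CPM (1.45). It was the only marker of that list called, or 5.56%, a share below that of all genes. Mbp, which codes for myelin basic protein, had a log2 fold change of -0.09 with overlapping groups.

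The 15 largest falls, chosen as the rises were, held secreted, pigment cell and blood genes. Igfbp7, a secreted binding protein of insulin-like growth factors (chromosome 5, 77349240 to 77408045), was at 895, 1020 and 891 CPM after saline and at 491, 420, 419 and 447 CPM after microbeads. Saline 4 had 456 CPM, within the microbead range, and the log2 difference was -1.07 with a standard error of 0.109. Alpl, alkaline phosphatase, was at 62.3, 124 and 72.2 CPM and at 38.7, 40.7, 33.8 and 48.9 CPM (-1.09). The antimicrobial protein Bpifb1 (-1.37), the carboxypeptidase-like Cpxm1 (-1.10), the transcription cofactor Cited1 (-1.05), the eye field factor Rax (-1.13) and the odorant receptor gene Olfr558 (-1.23) also fell. Beta-s, a beta chain of adult hemoglobin, had the largest fall of the 15 (-2.23, standard error 0.504), from 130, 131 and 46.5 CPM to 45.7, 14.3, 15.5 and 13.0 CPM, and Alas2, the heme synthesis enzyme of red blood cells, fell too (-2.29, at counts below the minimum for that choice), from 6.27, 11.045 and 3.17 CPM to 2.89, 1.16, 0.807 and 0.948 CPM. Saline 4 held 9.35 CPM of Beta-s and 0.355 CPM of Alas2, less than any other injected library. Counts of Beta-s are uncertain where reads match the other beta globin genes, and the part of residual blood in these values was not tested.

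Several pigment cell genes fell. Gpnmb, a glycoprotein of melanosomes and macrophages, was at 474, 521 and 540 CPM after saline and 309, 243, 207 and 251 CPM after microbeads (-1.02), and the melanosome receptor Gpr143 at 32.0, 26.4 and 28.2 CPM and at 19.8, 15.9, 9.88 and 12.5 CPM. Pmel, the fibril protein of melanosomes, fell from 995, 1012 and 1144 CPM to 810, 503, 443 and 460 CPM (-0.92) and Mlana from 250, 162 and 165 CPM to 148, 79.0, 87.9 and 82.8 CPM (-0.95). Groups did not overlap for these 4 genes, which the rule of choice had fixed for Gpnmb and Gpr143. Microbead 1 was the highest of its group for each of the 4, and saline 4 had 331, 17.8, 734 and 119 CPM. Of the 18 genes of retina and pigment epithelium tested 2 fell (11.1%, against 3.06% of all genes) and 0 rose. All 18 had a log2 fold change below 0, and the median was -1.09. Their summed level ranged from 2913 to 10469 CPM after saline and from 1426 to 4339 CPM after microbeads, with 3293 CPM in saline 4. The part of retina or pigmented tissue in these falls was not tested.

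Among genes of defence against oxidants and metals 5 of 29 fell and 0 rose (17.2%, against 3.06% and 9.39% of all genes). The median log2 fold change was -0.20. Prdx6, a peroxiredoxin that is abundant in astrocytes, was at 5446, 5676 and 5298 CPM after saline and at 3255, 3464, 4053 and 3540 CPM after microbeads (-0.61). Gstm1, a glutathione transferase, was at 511, 473 and 409 CPM and at 248, 199, 225 and 274 CPM (-0.97), and saline 4, with 257 CPM, lay within the microbead range. The transferase Gstp1 (-0.68) and the metallothioneins Mt1 (-0.81) and Mt2 (-0.92) fell as well, and Gstm1 was the only member called with the length trend removed. Close relatives of Gstm1 and of the metallothioneins share sequence, so their counts carry that uncertainty. Of 19 markers of retinal ganglion cell axons 2 fell (10.5%, against 3.06% of all genes), Stmn2, a microtubule regulator of growing axons (-0.89), and Sncg, gamma-synuclein (-0.78). The log2 fold change was above 0 for 4 of the 19, and the median was -0.22, or -0.43 with the length trend removed, where Stmn2 was still called. Stmn2 was at 19.3, 19.8 and 17.4 CPM after saline and 10.8, 9.10, 11.5 and 9.19 CPM after microbeads, while the neurofilament genes Nefl and Nefh had overlapping groups.

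Of 23 genes induced by glucocorticoids 2 rose, Ddit4 and the clock gene Per1 (1.34), and 3 fell, Mt1, Mt2 and Nfkbia (-0.60), which is 8.70% and 13.0% against 9.39% and 3.06% of all genes. Of 24 hypoxia-induced genes Ddit4 rose and the peptide hormone gene Adm fell (-0.70), which is 4.17% in each direction, and Adm was not called with the length trend removed. Of 29 immediate early genes Klf4 (0.74) and Maff (0.88) rose (6.90%), a share below that of all genes. Among 32 proteasome subunits 1 had a log2 fold change above 0, the groups did not overlap for 25, where 17.7% of all genes were separated in that direction, and the median was -0.33, but Psmb2 alone fell past the fold minimum (-0.67). The median length of these transcripts was 1358 bases, and the median log2 fold change was -0.09 once the length trend was removed. Of 31 motor protein genes the kinesin light chain Klc2 (1.42) and Kif21b (0.79) rose and the dynein light chain Dynll1 (-0.85) fell (6.45% and 3.23%, against 9.39% and 3.06% of all genes). With the length trend removed Klc2 was called higher and Dynll1 and the kinesin Kif3a lower.

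The direction of change followed gene length. The median summed exon length was 4725 bases for the genes that rose and 1336 bases for those that fell, against 2867 bases for all genes tested, and across genes the log2 fold change and length had a Spearman correlation of 0.562. Among the shortest 10% of genes 1.24% were called higher and 13.1% lower, and among the longest 10% they were 22.8% and 0.550%. Within single libraries, the Spearman correlation of gene length with the level relative to the young naïve libraries was -0.206 to -0.175 in saline 1 to 3, 0.411 to 0.468 in microbead 1 to 4 and 0.474 in saline 4. The young naïve libraries, each taken against the rest of that group, ranged from -0.387 to 0.264. The difference between the groups gave p = 0.0286 in an exact two-sided permutation test of saline 1 to 3 against microbead 1 to 4, the smallest p that the 35 arrangements allow, and p = 0.143 with saline 4 in its group. After the length trend of each library was removed, 958 genes were called (6.59%), 671 higher (4.61%) and 287 lower (1.97%). Of these, 723 were among the 1810, namely 605 of the 1365 rises (44.3%) and 118 of the 445 falls (26.5%). Genes rich in G and C were also called higher more often, 17.0% in the top 10% of GC content against 5.77% in the bottom 10%. Removing length and GC together left 911 called genes (6.27%), 614 higher (4.22%) and 297 lower (2.04%). The part of gene length in the difference between the groups was not tested beyond this.

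**Figure D4:**
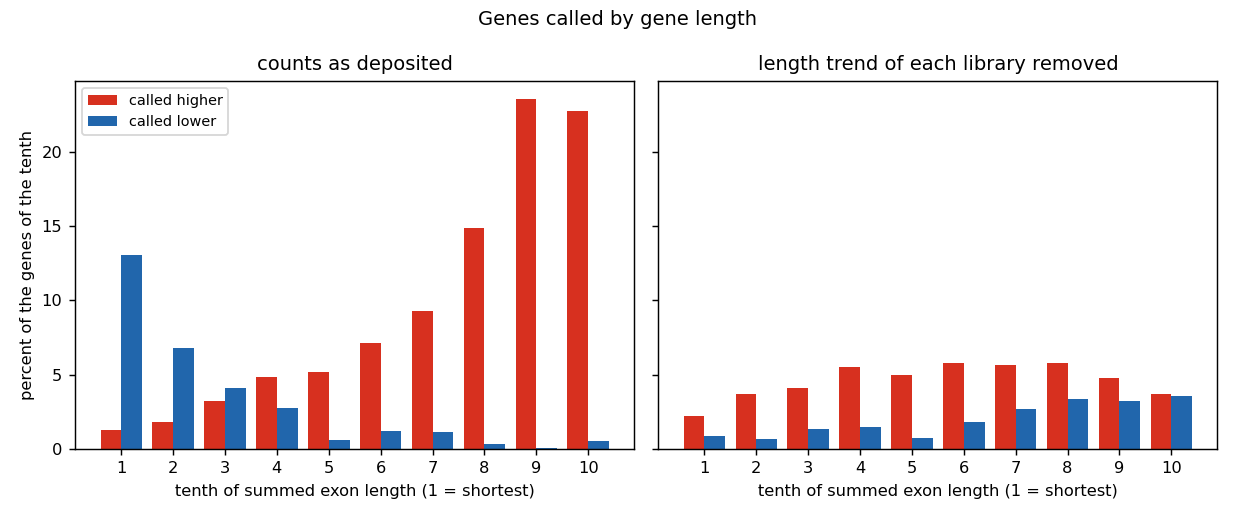
Percent of genes called higher (red) and lower (blue) in 10 bins of summed exon length, from the shortest genes (1) to the longest (10), for the counts as deposited (left) and with the length trend of each library removed (right). On the left the share called higher runs from 1.24% to 22.8% between the first and the last bin, and on the right it stays between 2.20% and 5.79%.

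A smaller set of genes kept all 4 saline libraries apart from all 4 microbead-injected libraries. Of the 1810 called genes this was so for 267, of which 207 rose and 60 fell, and over all genes tested the 8 libraries were separated in this way for 6.46%, 3.51% upward and 2.94% downward. In 68 of the 267, saline 4 lay nearer to the mean of saline 1 to 3 than to that of the microbead group. The examples that follow were chosen after their values were seen. Syt7, a calcium sensor of exocytosis, was at 6.27, 5.62, 4.44 and 8.28 CPM in saline 1 to 4 and at 8.80, 11.96, 14.5 and 14.8 CPM in microbead 1 to 4 (log2 fold change 1.20). Fam107a, an actin-associated stress gene, was at 58.1, 33.2, 45.0 and 52.7 CPM and at 99.9, 110, 71.4 and 91.9 CPM (1.04). For Fam107a saline 4 was within the range of the other saline libraries, and for Syt7 it was the highest of them. Aldh5a1, an enzyme of GABA breakdown (0.94), Max, the partner of Myc (0.88), Sema7a (0.94), Loxl2, a matrix crosslinking enzyme (0.84), and the heat shock protein gene Dnajb5 (0.87) rose in the same way. Fcrls (-0.81), Nrbf2, a component of the autophagy lipid kinase complex (-0.80), and Gpr65, a proton-sensing receptor (-0.71), were the corresponding falls, with saline 4 at 28.6, 8.40 and 9.23 CPM against 16.9 to 26.0, 4.46 to 6.03 and 4.74 to 7.22 CPM after microbeads.

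With the length trend removed and saline 4 in its group, 5 genes were called by edgeR, all with an adjusted p of 0.0495, and 3 of them, Cadm4, Spns2 and Nfix, were among the 1810. This combination was added after the data had been seen. Cadm4, a cell adhesion molecule of glia and Schwann cells (chromosome 7, 24482023 to 24504533), was the largest of them, at 8.14, 6.12, 3.55 and 12.5 CPM in saline 1 to 4 and at 22.7, 17.2, 24.8 and 23.1 CPM in microbead 1 to 4. Spns2, the exporter of sphingosine 1-phosphate, was at 12.7, 14.7, 12.05 and 18.6 CPM and at 26.7, 23.8, 24.0 and 24.0 CPM. In both genes saline 4 was the highest saline library and still below every microbead-injected library. The 3 lower genes were Nfix, a transcription factor of astrocyte development, at 343, 356, 350 and 239 CPM and 187, 176, 200 and 230 CPM, Mgll, monoacylglycerol lipase, at 323, 289, 292 and 246 CPM and 223, 186, 188 and 216 CPM, and Fbln5, at 377, 362, 432 and 400 CPM and 288, 316, 246 and 299 CPM. Of the 5, Fbln5 was the one in which saline 4 lay inside the range of saline 1 to 3. The log2 fold changes in this fit were 1.59 for Cadm4, 0.69 for Spns2, -0.87 for Nfix, -0.73 for Mgll and -0.73 for Fbln5.

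**Figure D5:**
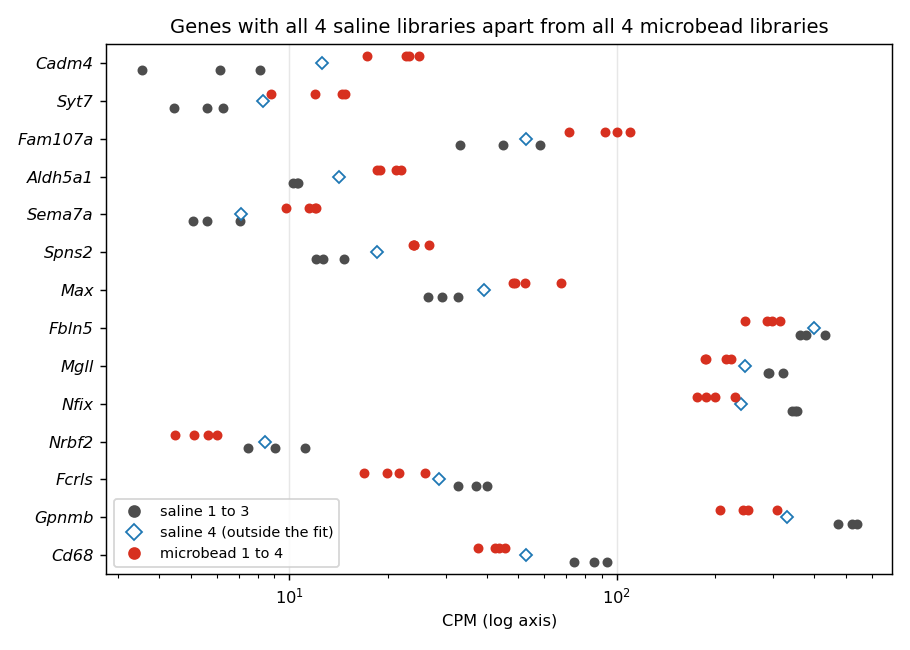
Level in CPM on a log axis of 14 genes in which all 4 saline libraries (grey circles, and an open diamond for saline 4) are apart from all 4 microbead-injected libraries (red circles), 1 point per library. Saline 4 lies at 12.5 CPM for Cadm4, between 8.14 CPM and 17.2 CPM, and at 400 CPM for Fbln5, inside the range of the other saline libraries.

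The libraries also carry a code in their labels, which is 4 for all saline libraries and for microbead 1 and 2 and 5 for microbead 3 and 4. Among the libraries with code 4, saline 1 to 3 against microbead 1 and 2, 1385 genes were called (9.79%), 7.39% of genes higher and 2.40% lower, of which 1181 were called in the same direction among the 1810. What the code stands for is not stated, and saline 4 carries code 4 too.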

How the data were processed

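RNA was sequenced from pooled optic nerve heads with an ultra low input kit that does not record strand. The authors aligned reads to mm10 with STAR 2.3.0 and deposited raw counts per gene from featureCounts; its version and annotation were not given in the sources used here. Their comparison tables also hold signal values, counts divided by a library size factor, which the authors made with DESeq2 and which served only to see which libraries were kept; their fold change and p-value columns were not used.

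Counts were filtered with filterByExpr, scaled by TMM and fitted with edgeR 4.0.16 (robust quasi-likelihood test, R 4.3.3) in 1 model of 4 groups over 14 libraries, without saline 4 and 1 aged library. Genes were called at a fold of 1.5, p of 0.01 and Benjamini-Hochberg adjusted p of 0.05, both sides tested. Standard errors were derived from the fold change and F statistic. A loess of log2 level on summed exon length (span 0.5) removed the length trend of each library. Named genes were the 15 largest changes in each direction among called genes with separate groups and a mean count of at least 50, up to 4 called members of smallest p per list, the 2 most abundant markers per cell type, the genes of the study's single-cell PCR, and Lars2 and Rn45s by level. Other list members that are named were chosen after their values were seen. Members, lists and rules were chosen with earlier results of these data known. Some list members are not reported here. Promoter windows came from RefSeq (GRCm38.p6). Single values per library were compared by exact permutation over libraries. Each pool had its own RNA extraction, and the paper states that microbead and saline nerves were handled in parallel. Whether the pools of a group came from separate rounds of injection is not stated, so p-values measure the spread between these libraries. On simulated data with 14404 genes fitted, the fit called all 67 simulated 4-fold changes, 32 of 70 at 2-fold and 5 of 61 at 1.5-fold, with 7 false calls. These simulated counts had the same setting of spread for every gene and no length trend. They therefore do not show how many calls are false where a length trend divides the groups, as it does in the real libraries.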

Additional observations from a re-analysis of the deposited data

Results flagged for a closer look

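In 8 of the 147 named genes 1 microbead-injected library lay far from the other 3, as chance alone does in about 1 of 20 groups. Microbead 1 was the library in 6 of them. It was low for Tmem143 (8.40 CPM) and Megf10 (67.9 CPM), and high for Beta-s (45.7 CPM), Pmel (809.7 CPM), Mlana (148.4 CPM) and Dcn, the decorin gene of fibroblasts (2851 CPM). Microbead 4 was high for Fscn1 (103.9 CPM) and microbead 2 for Rptor (33.3 CPM).

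Among the 4 saline libraries, saline 4 lay far from the other 3 in the correlation of gene length with level (0.474), in Lars2 (5558 CPM) and in Mir5109 (146.1 CPM). As a library outside the comparison, it lay nearer to the microbead mean in 96.19% of the genes called higher and in 93.71% of those called lower.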

How the results depend on the processing

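The count of 1810 genes, 1365 higher and 445 lower, stayed within 1.5 times under other scalings, filters, DESeq2 (1807), a fit of the 7 libraries alone and libraries of code 4 alone. Leaving out each library in turn gave 1683 to 1957 called genes, 1226 to 1485 higher and 369 to 546 lower. With saline 4 added edgeR called 0 genes, 0 higher and 0 lower (4218 at an unadjusted p under 0.05), and with all 16 libraries 0, 0 and 0 (2772), while DESeq2 with saline 4 called 517, 406 higher and 111 lower. Removing the length trend gave 958, 671 and 287, removing length and GC 911, 614 and 297, and removing length with saline 4 added 5, 2 and 3. With no minimum fold 4372 were called, 2370 higher and 2002 lower. The fits with length and GC, with length and saline 4, and with DESeq2 and saline 4 were chosen after seeing the data. Between libraries of the same number in both groups, deviations from the group mean correlated at 0.103, -0.188 and 0.207. With only 3 pairs, these values cannot show whether the numbers pair the libraries. A replicate block gave 1675 called genes. The main limits are 3 saline libraries, 1 of 4 left out, pools without single animals, and a length trend that divides the groups. The paper's supplement also lists a lower RNA concentration for saline 1 to 3 than for saline 4 and every microbead pool. The part of RNA concentration in the difference between the groups was not tested.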
